A study of Mus musculus with 54 samples.

Results

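The genes described here are Nfe2l2, which encodes the transcription factor NRF2, Keap1, which encodes its main repressor, and 8 genes that NRF2 is known to drive: Slc7a11, Gclc, Gclm, Gsr, Txnrd1, Srxn1, Hmox1 and Nqo1. These 10 genes, taken by name as the core of the oxidative stress response, are 10 of the 52636 genes in the count tables, and all 10 passed the filter on low counts that left 14970 genes for testing. Their mRNA was counted by RNA sequencing in bone marrow-derived macrophages, which are macrophages grown from mouse marrow in culture with the growth factor M-CSF. Cells were wild type (WT) or N4bp1 knockout (KO). They were untreated or given Pam3 (Pam3CSK4, a lipopeptide ligand of TLR2) or R837 (imiquimod, a ligand of TLR7) for 2, 4, 6 or 8 h, which makes 18 groups of 3 libraries each. N4BP1 is an inhibitor of inflammatory signalling in macrophages. The labels give the WT animals as C57BL/6N, and do not say how N4bp1 was deleted, what background the KO animals had or how old the mice were. All groups share the culture medium, which held the reducing agent 2-mercaptoethanol.

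In unstressed cells KEAP1 holds NRF2 in the cytoplasm and hands it to a ubiquitin ligase for destruction. When oxidants or electrophiles modify KEAP1, NRF2 escapes, enters the nucleus, pairs with a small MAF protein and binds antioxidant response elements in its target genes. NRF2 is therefore controlled mainly as a protein, and its mRNA level does not measure its activity. In macrophages activated through Toll-like receptors, metabolites such as itaconate and the oxidants made by NADPH oxidase are known to engage this pathway, and its targets supply glutathione, reduced thioredoxin and the enzymes that break down haem and quinones.

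The 54 libraries held between 20.03 and 45.9 M counts each (median 29.9 M; M is the usual prefix mega). N4bp1 itself was lower in KO at all 9 conditions, by log2 differences between -1.70 and -0.78. Untreated KO libraries still held 36.2 ± 5.28 CPM of it, against 64.7 ± 1.02 CPM in untreated WT (SD, n = 3, as for every ± on a level; CPM is counts per M of the scaled library total). Summed markers of macrophages reached at least 17720 CPM in every library, and markers of T and NK cells stayed under 1 CPM each. Summed B and plasma cell markers ran from 74.3 to 167 CPM in KO and from 16.8 to 105 CPM in WT. Of these 8 markers, Cd79a and Mzb1 stayed under 1 CPM in every KO library, as did Mzb1 in every WT library. Summed stromal and endothelial markers ran from 5.68 to 16.4 CPM in KO and from 13.01 to 28.3 CPM in WT. Summed neutrophil markers ran from 73.3 to 192 CPM in KO and from 94.75 to 241 CPM in WT. At 4 h of R837 they held 123, 163 and 146 CPM in KO against 207, 241 and 231 CPM in WT, while in untreated cells the genotypes overlapped. Of 8 macrophage markers 1 was higher and 4 were lower in KO at 8 h of Pam3, where 23.9% of all genes passed. Their median log2 difference was -0.34. Summed markers thus differed in part between the pooled libraries of the 2 genotypes, and the macrophage count is of 1 condition. The part of these markers in the differences between genotypes was not tested. The labels describe 3 mice per group, but Y-linked genes were at most 0.199 CPM in all 27 KO libraries. Among the 3 WT libraries of each condition 1 held 160 to 204 CPM, 1 held 55.6 to 69.3 CPM and 1 held at most 0.159 CPM. Xist, an RNA of female cells, stood in these 3 classes at 16.85 to 26.55, 92.0 to 130 and 98.3 to 140 CPM. The middle class thus held Y-linked reads and Xist together, and whether each of its libraries came from 1 mouse was not tested. The sex of the animals is thus partly mixed with the genotype, so KO values are set below against the WT library without Y-linked reads as well. Among the WT libraries of each condition it held the most summed B and plasma cell markers. At 6 h of R837 it held 102 CPM of them, against 34.5 and 46.9 CPM in the other WT libraries and 90.7 to 124 CPM in KO. At 8 h of Pam3 it held 60.4 CPM, below the 85.9 to 95.7 CPM of KO. The WT library without Y-linked reads is replicate 3 in untreated cells, at 2 h of Pam3 and at all times of R837. It is replicate 1 at 4, 6 and 8 h of Pam3, so a replicate number does not mark 1 source. Nothing else ties a library to 1 mouse, and p-values here measure the spread between libraries. In WT each class of Y-linked counts recurs at every condition, and the main model holds no term for it. Replicate 3 of KO with Pam3 at 8 h held counts in 12263 genes and replicate 3 of KO with Pam3 at 6 h in 16097, where the other 52 libraries held counts in 16356 to 18039 genes. Results at those times were repeated without both. Nnt, the mitochondrial enzyme that makes NADPH for glutathione reduction and is defective in some C57BL/6 substrains, was at most 0.574 CPM in KO and 0.555 CPM in WT. Whether so low a level fits the C57BL/6N label of the WT animals was not tested.

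RefSeq promoter windows, from 250 bases before to 50 bases after an annotated start, were matched for 7 of the 10 genes (build GRCm38.p6, 9 windows because Txnrd1 has 3 starts). The antioxidant response element core TGACNNNGC, searched on both strands, lay in windows of Nfe2l2, Gclm, Txnrd1 and Srxn1. That is 4 of 7 genes and 4 of the 9 windows, beside 12.4% of all 32851 windows of the same length. The AP-1 site TGANTCA lay in the Srxn1 window alone of the 9, and in 7.81% of all windows. The loose NF-kB pattern (GGG and CC with 5 free bases between) lay in 5 of the 9 windows, from 5 of the 7 genes, and in 50.8% of all windows. A match is a description of letters, and no binding was measured here. The stretches below read 5′ to 3′ on the strand of the gene. Srxn1, Txnrd1 and Nfe2l2 are shown because they were already higher at 2 h. Gclm is shown because it was lower at 2 h and higher later, from 6 h of Pam3 and from 4 h of R837. Slc7a11 is shown because it changed most while its window holds no antioxidant response element core. Capitals mark the AP-1 sites in Srxn1, the antioxidant response element core (or its complement, for a match on the other strand) in Gclm, Txnrd1 and Nfe2l2, and the NF-kB pattern in Slc7a11.
Srxn1 (chr2:152105404-152105503, plus strand): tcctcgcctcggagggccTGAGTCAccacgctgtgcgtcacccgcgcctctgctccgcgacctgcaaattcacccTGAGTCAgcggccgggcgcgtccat
Gclm (chr3:122245397-122245456, plus strand): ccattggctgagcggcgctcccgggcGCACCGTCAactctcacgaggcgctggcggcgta
Txnrd1 (chr10:82859086-82859145, plus strand): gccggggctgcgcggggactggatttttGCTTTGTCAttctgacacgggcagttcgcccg
Nfe2l2 (chr2:75704854-75704913, minus strand): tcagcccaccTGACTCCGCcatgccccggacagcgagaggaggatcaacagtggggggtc
Slc7a11 (chr3:50443794-50443853, minus strand): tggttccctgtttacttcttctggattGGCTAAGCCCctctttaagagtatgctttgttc

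Both ligands changed most of these genes in WT cells, in 2 phases. At 2 h Nfe2l2, Slc7a11, Txnrd1 and Srxn1 were higher than in untreated cells while Keap1, Gclm and Hmox1 were lower, and by 8 h of Pam3 all 10 genes were higher. Slc7a11 changed most, to between 25.8 and 164 times its untreated mean, while Gclc passed the test under Pam3 alone. Tests are from edgeR's quasi-likelihood method across all 14970 genes, with adjusted p under 0.05 as the threshold, and changes are log2 ratios ± SE. With Pam3 at 2, 4, 6 and 8 h, 7, 6, 9 and 10 of the 10 genes passed, where 41.0%, 49.0%, 53.5% and 52.2% of all genes did. With R837 at the same times 8, 7, 8 and 8 passed, where 42.0%, 53.8%, 59.2% and 57.3% of all genes did. The counts lie above a high background, and the sizes carry more. The median log2 change of the 10 genes at 8 h was 1.54 with Pam3 and 1.01 with R837, against -0.03 and -0.06 over all genes. The 8 comparisons share the 3 untreated WT libraries.

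**Figure D1:**
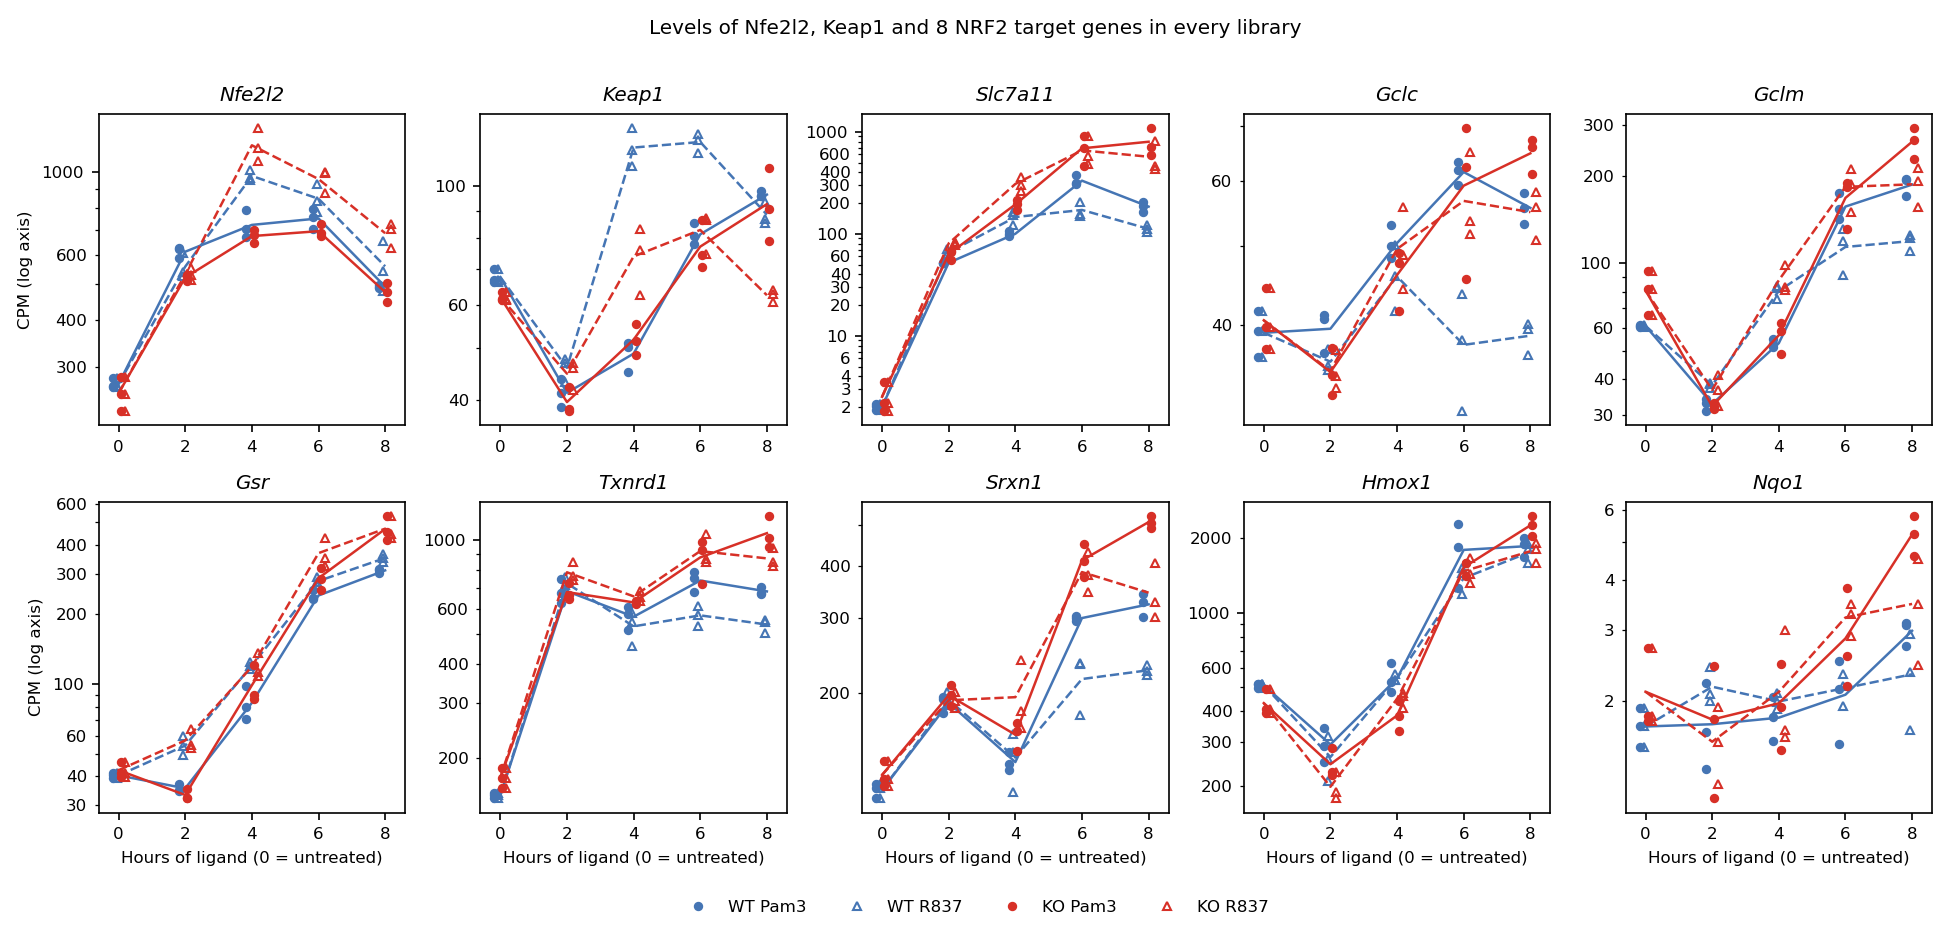
CPM (log axis) of each of the 10 genes against hours of ligand, with 1 point per library and lines through group means (blue WT, red KO, filled circles and solid lines Pam3, open triangles and dashed lines R837; the untreated libraries are drawn for both ligands). Slc7a11 climbs from 2.02 CPM in untreated WT cells to 332 CPM at 6 h of Pam3, Gclm and Hmox1 dip at 2 h before they climb, and WT libraries with R837 stand highest for Keap1 at 4 and 6 h.

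Nfe2l2 itself rose with both ligands and peaked in mid-course. Its untreated WT libraries held 280, 265 and 267 CPM, and those with R837 at 4 h held 961, 949.7 and 1011 CPM, a log2 change of 1.85 ± 0.09 (adjusted p = 2.78e-22, edgeR). With Pam3 the highest mean came at 6 h, at 793, 701 and 755 CPM (log2 1.47 ± 0.09, adjusted p = 7.87e-19). All treated libraries lay above all untreated ones. By 8 h it had fallen back to 492 ± 5.40 CPM with Pam3 and 558 ± 86.6 CPM with R837, still above untreated by log2 0.86 and 1.04. The step from 6 to 8 h passed the test for both ligands (log2 -0.61 and -0.60).

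Keap1, the repressor, fell first and then rose. Untreated WT libraries held 67.0, 66.2 and 70.1 CPM, and at 2 h they held 43.8, 38.8 and 41.2 CPM with Pam3 and 43.3, 46.8 and 47.7 CPM with R837, none of which overlapped the untreated range. The log2 change at 2 h was -0.72 ± 0.09 with Pam3 (adjusted p = 1.16e-08) and -0.56 ± 0.09 with R837 (1.72e-06). At 4 h the ligands parted: Keap1 stayed low with Pam3 at 45.2, 50.2 and 51.0 CPM and was high with R837 at 128, 117 and 109 CPM, the former below and the latter above every untreated library. At 8 h it was above untreated with both, by log2 0.51 ± 0.09 and 0.39 ± 0.09. The count of Keap1 could in principle take reads of the antisense gene Gm16754, which shares 510 exon bases with it, but that gene held 304 counts in all 54 libraries against 116269 for Keap1.

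Slc7a11 encodes the cystine importer xCT, which brings in the cysteine that limits glutathione synthesis. It was nearly silent in untreated WT cells, at 2.13, 2.06 and 1.86 CPM. At 2 h it stood at 52.3, 51.4 and 52.3 CPM with Pam3 and at 71.5, 63.2 and 62.4 CPM with R837, and at 6 h at 308, 314 and 373 CPM with Pam3 and 149.7, 206 and 158 CPM with R837. No treated library came near the untreated ones. The largest log2 change was 7.36 ± 0.30 at 6 h of Pam3 (adjusted p = 1.47e-23), and the step down from 6 to 8 h of Pam3 passed the test (log2 -0.84, adjusted p = 0.0167) while that of R837 was -0.62 and did not. The former was lost without replicate 3 of 6 h (0.117) or replicate 1 (0.0592) or 2 (0.131) of 8 h, over a range of 9.99e-13 to 0.267.

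Gclc and Gclm encode the catalytic and the modifier subunit of glutamate-cysteine ligase, the enzyme of the first step of glutathione synthesis, and their mRNAs did not move together. Gclm held 60.5, 61.1 and 61.2 CPM in untreated WT cells and fell to 34.2, 31.1 and 33.2 CPM at 2 h of Pam3 (log2 -0.89 ± 0.13, adjusted p = 3.75e-07), below every untreated library. At 8 h of Pam3 it held 171, 194 and 196 CPM (log2 1.62 ± 0.13, adjusted p = 2.86e-14), and at 8 h of R837 126, 122 and 110.5 CPM (log2 0.97 ± 0.13). Gclc ranged only from 31.4 to 63.2 CPM over all 27 WT libraries. It rose with Pam3 at 4, 6 and 8 h, with the largest log2 change 0.65 ± 0.11 at 6 h (adjusted p = 2.12e-06). It did not pass at any time of R837, where its log2 change lay between -0.12 and 0.23. Its interval at 8 h of R837 was -0.23 to 0.21 (95%).

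Gsr encodes glutathione reductase, which returns oxidised glutathione to its reduced form. It was higher from 4 h of Pam3 and from 2 h of R837. From 40.5, 39.4 and 41.3 CPM in untreated WT cells it reached 312, 315 and 303 CPM at 8 h of Pam3 and 338, 349.8 and 364 CPM at 8 h of R837. The untreated and 8 h ranges lay far apart. The log2 changes were 2.94 ± 0.12 (adjusted p = 1.10e-24) and 3.12 ± 0.12 (1.26e-25). At 2 h its log2 change was -0.19 ± 0.12 with Pam3, which did not pass, and 0.43 ± 0.12 with R837, which did (adjusted p = 0.00237).

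Txnrd1 encodes thioredoxin reductase 1 and Srxn1 encodes sulfiredoxin, which repairs overoxidised peroxiredoxins. Txnrd1 rose early and stayed above untreated, with a dip at 4 h. It held 155, 153 and 149 CPM untreated against 678, 750.2 and 629 CPM at 2 h of Pam3 (log2 2.17 ± 0.10, adjusted p = 1.32e-22). It held 670.0, 677 and 706 CPM at 8 h of that ligand (log2 2.17 ± 0.10). Its log2 change stayed between 1.80 and 2.28 at all 8 time points of both ligands, and no treated library overlapped the untreated ones. From 2 to 4 h its mean fell from 686 to 568 CPM with Pam3 (adjusted p = 0.0270, edgeR) and from 726 to 529 CPM with R837 (0.000231). The Pam3 fall was lost without replicate 1 (0.0588) or 2 (0.170) of 2 h, or 2 (0.182) or 3 (0.0555) of 4 h. Its climb from 4 to 6 h of Pam3 passed (0.00357). Srxn1 rose, sank and rose again. It held 113, 119 and 122 CPM untreated, 196, 179 and 193 CPM at 2 h of Pam3, 145, 131 and 135 CPM at 4 h, and 342, 302 and 327 CPM at 8 h. Both the drop from 2 to 4 h (log2 -0.47) and the climb from 4 to 6 h (1.13) passed the test. With R837 at 4 h its log2 change from untreated was 0.25 ± 0.11 (adjusted p = 0.0483, with groups that overlapped), and over 21 alternatives that p ran from 0.00720 to 0.342. It was lost without untreated replicate 1 (0.0887) or 2 (0.0530), and without replicate 2 (0.120) or 3 (0.321) of R837 at 4 h.

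Hmox1 encodes haem oxygenase 1 and Nqo1 a quinone reductase, both classic NRF2 targets, and they lay at the ends of the range. Hmox1 held 497, 517 and 514 CPM in untreated WT cells, fell to 291, 249 and 342 CPM at 2 h of Pam3 (log2 -0.79 ± 0.15, adjusted p = 2.59e-05) and to 209, 258 and 318 CPM at 2 h of R837 (log2 -0.96 ± 0.15). It then reached 1677, 1891 and 1997 CPM at 8 h of Pam3 (log2 1.86 ± 0.15, adjusted p = 3.49e-14). Its 2 h libraries lay below and its 6 and 8 h libraries above all untreated ones, while those with R837 at 8 h held 1803, 1880 and 1583 CPM. Nqo1 was scarce, at most 3.13 CPM in any WT library. It passed only at 8 h of Pam3, at 3.10, 3.13 and 2.75 CPM against 1.53, 1.91 and 1.73 CPM untreated (log2 0.79 ± 0.27, adjusted p = 0.0122). Leaving out the filter on low counts raised that p to 0.0594, within a range of 0.00253 to 0.110 over 21 alternatives.

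**Figure D2:**
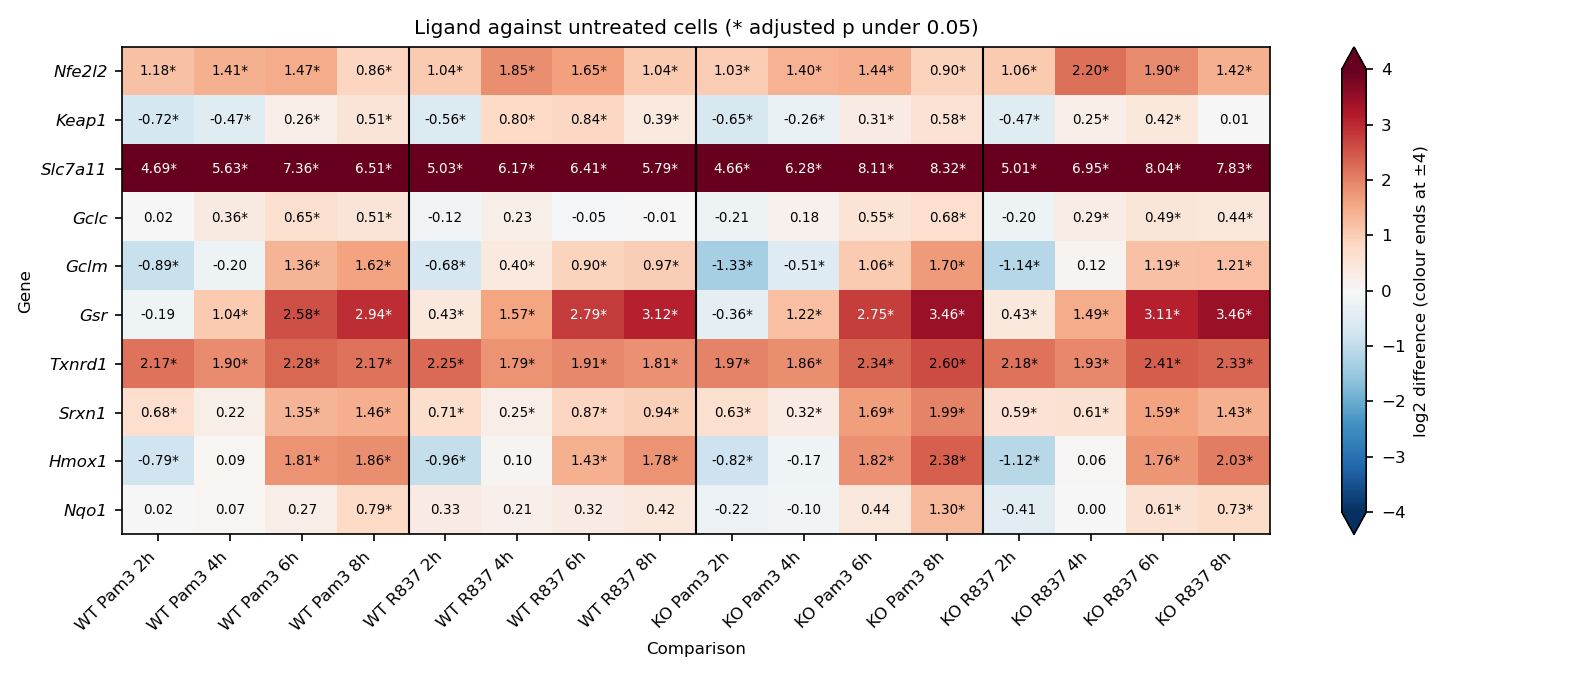
Log2 difference of each gene (rows) between cells with ligand and untreated cells of the same genotype, for each genotype, ligand and time (columns), with an asterisk where the edgeR adjusted p is under 0.05. Slc7a11 is high throughout and runs past the end of the colour scale, and the 2 h columns hold the only negative changes that passed for Hmox1, and most of those for Gclm and Keap1.

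KO cells were set against untreated KO cells in the same way. With Pam3 at 2, 4, 6 and 8 h 8, 7, 9 and 10 of the 10 genes passed against untreated KO cells, where 39.8%, 52.5%, 57.0% and 61.5% of all genes did. With R837 8, 7, 10 and 9 passed, where 43.4%, 52.9%, 59.0% and 61.0% of all genes did. Between successive times, counts of genes that passed from 2 to 4, 4 to 6 and 6 to 8 h were 9, 7 and 2 for WT with Pam3 (34.5%, 17.0% and 3.57% of all genes). The 9 fell to 5 without replicate 2 of WT with Pam3 at 4 h, and the 2 to 1 without replicate 3 of 6 h or replicate 1 or 2 of 8 h. They were 9, 4 and 2 for WT with R837 (31.4%, 16.3% and 9.65%). For KO they were 8, 8 and 6 with Pam3 (39.6%, 15.2% and 16.3%), and 8, 7 and 3 with R837 (25.9%, 19.2% and 6.75%). From 6 to 8 h of Pam3, Gclm, Gsr and Hmox1 rose in KO (log2 0.64, 0.71 and 0.56), whereas in WT the same steps were 0.25, 0.36 and 0.05 and did not pass; the difference between these steps was not tested. Without the libraries with counts in the fewest genes, the KO count with Pam3 from 6 to 8 h was 4 and the WT count with R837 was 4.

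The ligands differed from each other in 2 ways in WT cells: at 4 h R837 gave more Keap1, Nfe2l2, Gclm and Gsr, and at 6 and 8 h it gave less Slc7a11, Gclc, Gclm, Txnrd1 and Srxn1 than Pam3. At 2, 4, 6 and 8 h 1, 4, 6 and 5 of the 10 genes passed, where 4.78%, 21.9%, 22.7% and 11.5% of all genes did. The labels give no dose for either ligand, so these are differences between the cultures as treated. Keap1 at 4 h was the largest, at a log2 difference of 1.27 ± 0.09 for R837 minus Pam3 (adjusted p = 5.51e-15, edgeR), from the values above, which did not overlap. Gsr was the gene that differed at 2 h, at 53.9, 49.6 and 59.5 CPM with R837 against 37.0, 34.6 and 34.9 CPM with Pam3 (log2 0.61 ± 0.12, adjusted p = 0.000401). That call was lost with all WT libraries numbered 3 left out (0.0758).

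At 6 h the order turned for the glutathione and thioredoxin genes. Slc7a11, given above, differed by log2 -0.95 ± 0.22 (adjusted p = 0.000835) and Gclc, at 31.4, 43.7 and 38.4 CPM with R837 against 59.4, 62.0 and 63.2 CPM with Pam3, by -0.70 ± 0.11 (2.77e-06). Neither pair of groups overlapped. At 8 h Gclm differed by -0.64 ± 0.13 (adjusted p = 0.000430), Srxn1 by -0.52 ± 0.11 (0.000796) and Gclc by -0.52 ± 0.11 (0.000825). With all WT libraries numbered 3 left out, Gclm (adjusted p = 0.0759, edgeR) and Gclc (0.0634) at 8 h and Slc7a11 at 6 h (0.0680) lost their calls. The count then fell from 5 to 1 at 8 h and from 6 to 3 at 6 h. Srxn1 at 6 h was lost when those numbered 1 were left out (0.0637). Hmox1 did not pass at any time, with a log2 difference of -0.08 at 8 h and an interval of -0.37 to 0.21 (95%). Less firm were Slc7a11 at 8 h (log2 -0.73, adjusted p = 0.0217, over 21 alternatives from 9.31e-10 to 0.297), which was lost without replicate 1 (0.0531) or 3 (0.103) of Pam3 or replicate 1 (0.0746) or 3 (0.0828) of R837. So was Txnrd1 at 8 h (log2 -0.35, adjusted p = 0.0120, from 0.00475 to 0.154), without replicate 3 of Pam3 (0.0645) or 1 of R837 (0.0575), the former of which cut the count at 8 h from 5 to 3. Gclm at 6 h (log2 -0.46, adjusted p = 0.00690, from 0.000380 to 0.113) was lost without replicate 2 of Pam3 (0.0780) or 1 of R837 (0.108).

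The ligands also differed in KO cells, and whether they did so otherwise than in WT was not tested. At 2, 4, 6 and 8 h 1, 4, 2 and 5 of the 10 genes passed, where 10.7%, 17.4%, 12.1% and 22.8% of all genes did. Nfe2l2 was higher with R837 than with Pam3 at 4, 6 and 8 h, by log2 0.81 ± 0.09, 0.46 ± 0.09 and 0.52 ± 0.09. Keap1 was higher with R837 at 4 h (log2 0.51 ± 0.09) and lower at 8 h, at 64.2, 63.0 and 60.9 CPM against 90.6, 79.2 and 108 CPM (log2 -0.56 ± 0.09, adjusted p = 1.11e-05), with no overlap. Slc7a11 at 6 h, which differed in WT, showed a log2 difference of -0.07 ± 0.21 in KO, with groups that overlapped, and of -0.29 (adjusted p = 0.535) without the libraries with counts in the fewest genes. Gsr at 6 h (log2 0.36, adjusted p = 0.0285) was lost without KO replicate 2 (0.130) or 3 (0.0868) of Pam3 or replicate 1 (0.278) of R837, within a range of 0.0113 to 0.278. Slc7a11 at 4 h (log2 0.67, adjusted p = 0.0262, from 2.80e-08 to 0.157) was lost without KO replicate 1 (0.0731) or 2 (0.112) of Pam3 or 3 (0.157) of R837. At 8 h Txnrd1 (log2 -0.27, adjusted p = 0.0418, from 0.0179 to 0.272) was lost without KO replicate 1 (0.272) or 3 (0.0640) of Pam3 or 2 (0.146) or 3 (0.135) of R837. Gclm at that time (log2 -0.49, adjusted p = 0.00528, from 0.000319 to 0.0804) was lost without KO replicate 3 of R837 (0.0720), which cut the count there from 5 to 3.

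**Figure D3:**
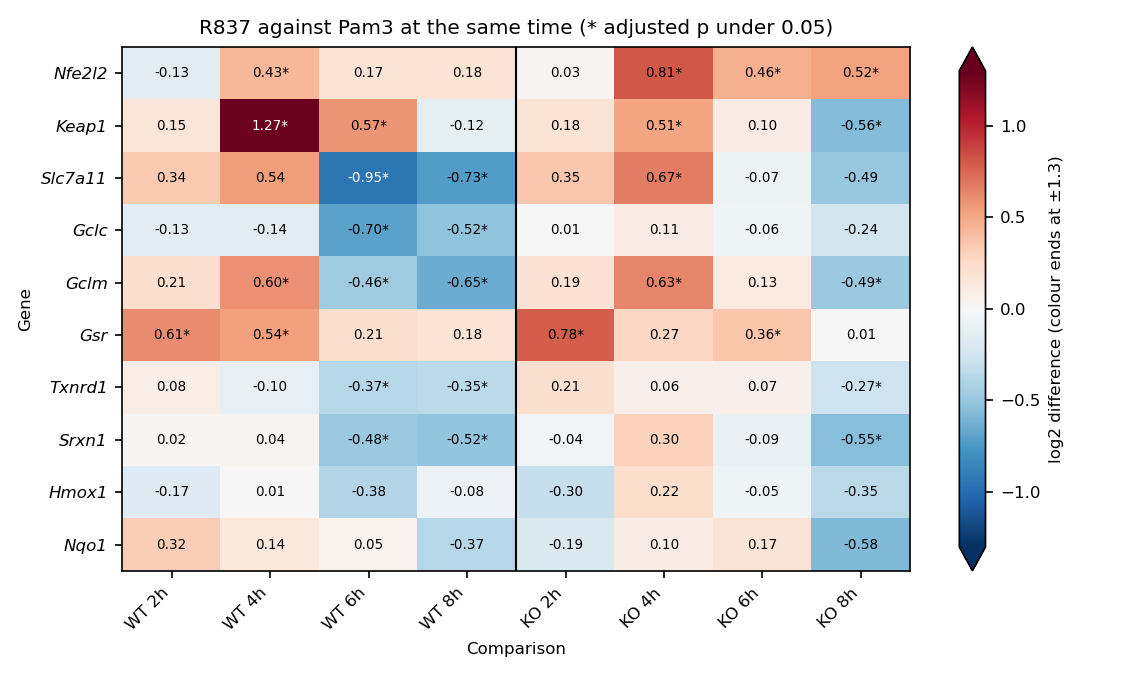
Log2 difference between R837 and Pam3 at the same time (columns, WT left and KO right) for each gene (rows), with an asterisk where the edgeR adjusted p is under 0.05; red is higher with R837. In WT Keap1 at 4 h is the strongest red at 1.27, and Slc7a11, Gclc, Gclm, Txnrd1 and Srxn1 are blue at 6 and 8 h.

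The comparison the study is built on, KO against WT at the same condition, showed no difference that passed for any of the 10 genes in untreated cells or at 2 h of either ligand, and then differences from 4 h on. From 4 h Slc7a11 was higher in KO with both ligands, by 8 h Gclm, Gsr, Txnrd1 and Srxn1 were too, and Keap1 was lower in KO from 4 h of R837. Keap1 did not pass with Pam3, and the difference between the ligands in this respect was not tested. With Pam3 at 2, 4, 6 and 8 h 0, 2, 2 and 6 of the 10 genes passed, where 1.43%, 6.43%, 7.99% and 23.9% of all genes did. With R837 0, 5, 7 and 8 passed, where 2.69%, 10.4%, 16.5% and 15.9% of all genes did. In untreated cells 0 passed, where 0.882% of all genes did. In each of the 3 comparisons with 0 calls by edgeR, 1 of the 10 genes had an unadjusted p under 0.05, and DESeq2 and limma voom called 0. Over 21 alternatives the highest count in each of the 3 was 1. With the class of Y-linked counts as a term, chosen after seeing the data, Nfe2l2 was lower in KO at 2 h of Pam3 (log2 -0.30, adjusted p = 0.0392). The median log2 difference of the 10 genes was 0.54 at 8 h of Pam3 and 0.55 at 8 h of R837, against -0.05 and 0.00 over all genes. In bulk cultures more RNA per cell and a shift in the mix of cells cannot be told apart, which holds for every level given here.

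**Figure D4:**
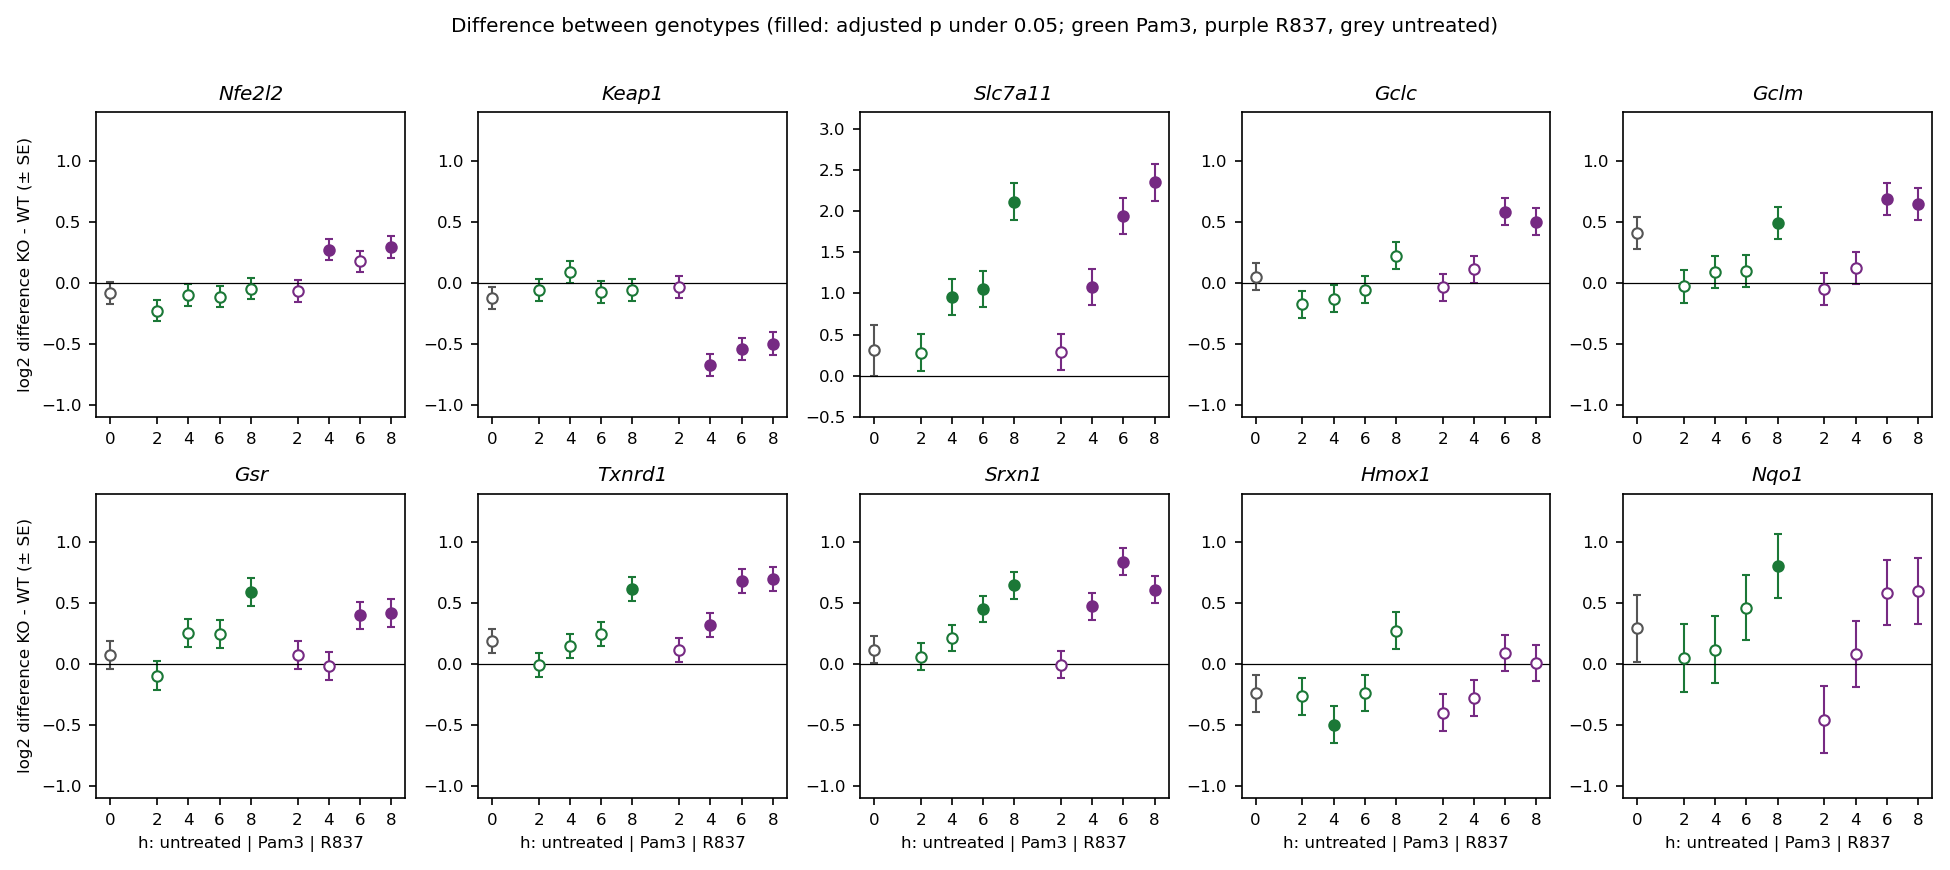
Log2 difference between KO and WT (± SE) for each gene in untreated cells (grey) and at 2, 4, 6 and 8 h of Pam3 (green) and R837 (purple), filled where the edgeR adjusted p is under 0.05; the Slc7a11 panel has a taller axis. Slc7a11 reaches 2.11 and 2.35 at 8 h, Keap1 lies below 0 at 4 to 8 h of R837, and Hmox1 has no filled point at 6 or 8 h.

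Slc7a11 showed the largest difference. At 8 h of Pam3 KO libraries held 1088.5, 594 and 714 CPM against 186, 165 and 203 CPM in WT, a log2 difference of 2.11 ± 0.22 (adjusted p = 3.18e-09, edgeR). With R837 at 8 h they held 809, 432 and 467 CPM against 103, 121 and 111 CPM (log2 2.35 ± 0.23, adjusted p = 3.79e-10). The genotypes did not overlap at either, and replicate 1 was the highest KO library in both. At 4 h, where KO with Pam3 held 197, 171 and 214 CPM against 94.9, 99.0 and 106 CPM in WT, the difference was already 0.95 ± 0.22 (adjusted p = 0.00412), and with R837 1.08 ± 0.22 (0.000491). KO libraries at 6 h of Pam3 held 905, 698 and 461 CPM (log2 1.05 ± 0.22, adjusted p = 0.00103) and those at 6 h of R837 910.2, 484 and 578 CPM (1.94 ± 0.22, 1.28e-08), all above every WT library of that time. At 2 h it was 0.28 and 0.29 and did not pass, although no KO library overlapped WT. At all 8 conditions with a ligand each of the 3 KO libraries also lay above the WT library without Y-linked reads. Without the libraries with counts in the fewest genes the difference at 8 h of Pam3 was 2.19 on the log2 scale.

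The genes for building and recycling glutathione followed. Gclm at 8 h of Pam3 held 293, 229 and 265 CPM in KO against 171, 194 and 196 CPM in WT (log2 0.49 ± 0.13, adjusted p = 0.00480, but 0.0646 when fitted on the groups compared alone, the highest of a range from 0.000251). With R837 at that time it held 192, 213 and 157 CPM against 126, 122 and 110.5 CPM (log2 0.65 ± 0.13, adjusted p = 0.000281). Gclc passed with R837 alone, at 55.8, 58.2 and 50.8 CPM against 39.5, 40.2 and 36.8 CPM at 8 h (log2 0.50 ± 0.11, adjusted p = 0.000868), while with Pam3 at 8 h its log2 difference was 0.22 ± 0.11. Gsr at 8 h of Pam3 held 531, 419.6 and 452 CPM against 312, 315 and 303 CPM (log2 0.59 ± 0.11, adjusted p = 0.000123). In each of these pairs all KO libraries lay above all WT libraries. Gsr also passed at 6 and 8 h of R837, by log2 0.40 and 0.42 (adjusted p = 0.00967 and 0.00670), but was lost without KO replicate 1, at 0.157 (range 0.00274 to 0.157) and 0.0895 (range 0.00158 to 0.0895).

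The thioredoxin genes were higher in KO with both ligands. Txnrd1 at 8 h of R837 held 946, 825 and 848 CPM in KO against 505, 556 and 548 CPM in WT (log2 0.70 ± 0.10, adjusted p = 7.27e-07). With Pam3 it held 1196, 947 and 1011 CPM against 670.0, 677 and 706 CPM (log2 0.62 ± 0.10, adjusted p = 6.39e-06). Srxn1 at 6 h of R837 held 380.4, 431 and 347 CPM against 178, 235 and 234 CPM (log2 0.84 ± 0.11, adjusted p = 1.46e-07). At 8 h of Pam3 it held 504, 525 and 492 CPM against 342, 302 and 327 CPM (log2 0.65 ± 0.11, adjusted p = 2.02e-05). None of these groups overlapped, and the 3 KO libraries lay above the WT library without Y-linked reads in each. For Txnrd1 that held in all 9 conditions, but that library was the lowest WT library in untreated cells and at 2 h. There the genotypes did not differ by the test, and at 2 h of Pam3 the KO mean (681 CPM) lay below the WT mean (686 CPM). At 4 h of R837 Txnrd1 and Srxn1 both passed (log2 0.32 and 0.47, adjusted p = 0.0262 and 0.00234). There Txnrd1 lost its call when replicate 1 (0.259) or 2 (0.0520) of WT, or replicate 1 (0.0780) or 2 (0.138) of KO, was left out, over a range of 0.0122 to 0.327. Srxn1 lost its call without WT replicate 1 (0.0569) or KO replicate 2 (0.124), over a range of 0.000334 to 0.124.

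Of the regulators, Keap1 with R837 was lower in KO at 4 h, at 76.1, 62.8 and 83.2 CPM against 128, 117 and 109 CPM in WT (log2 -0.67 ± 0.09, adjusted p = 4.46e-07). It was lower at 6 h, at 74.9, 86.4 and 87.5 CPM against 115, 125 and 122 CPM (log2 -0.54 ± 0.09). It was lower at 8 h too, at 64.2, 63.0 and 60.9 CPM against 93.4, 86.9 and 85.3 CPM (log2 -0.50 ± 0.09). No KO library reached the lowest WT library at any of the 3 times, the one without Y-linked reads included. With Pam3 its log2 difference lay between -0.08 and 0.09, and at 4 h the interval was -0.09 to 0.27 (95%). Without the libraries with counts in the fewest genes it was -0.16 at 6 h (adjusted p = 0.370) and -0.19 at 8 h (0.147). Nfe2l2 was higher in KO at 4 and 8 h of R837, by log2 0.27 ± 0.09 (adjusted p = 0.0347) and 0.29 ± 0.09 (0.0148), but neither call was firm, and with the class of Y-linked counts as a term they were 0.118 and 0.0564. At 4 h, over a range of 0.0190 to 0.254, leaving out replicate 1 (0.113), 2 (0.126) or 3 (0.0507) of WT, or 1 (0.0824) or 3 (0.254) of KO, lost it. At 8 h, over 0.000800 to 0.264, leaving out replicate 1 (0.218) or 2 (0.0651) of WT, or 1 (0.0620) or 3 (0.0876) of KO, did so. The WT library without Y-linked reads held 1011 CPM of Nfe2l2 at 4 h, below all KO libraries. At 8 h it held 652 CPM, within the KO range of 625 to 725 CPM. Leaving out WT replicate 1 of R837 at 4 h cut the number of genes that passed there from 5 to 2, and leaving out WT replicate 2 or KO replicate 1 or 2 cut it to 3.

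Hmox1, the haem-degrading target, at 8 h held 1908, 1810 and 1580 CPM in KO with R837 against 1803, 1880 and 1583 CPM in WT, and the log2 difference was 0.01 ± 0.15, with an interval of -0.28 to 0.30 (95%). At 8 h of Pam3 it was 0.28 ± 0.15 and did not pass, although 2250, 2456 and 2029 CPM in KO all exceeded 1677, 1891 and 1997 CPM in WT. At 4 h of Pam3 it was lower in KO, at 440, 382 and 333 CPM against 480, 624 and 523 CPM (log2 -0.50 ± 0.15, adjusted p = 0.0355, over a range of 9.28e-05 to 0.241). Leaving out replicate 2 (0.233) or 3 (0.0777) of WT, or 2 (0.120) or 3 (0.141) of KO, lost that call and cut the count there from 2 to 1, and the class of Y-linked counts as a term lost it as well (0.0924). In untreated cells and at 2 and 4 h of both ligands, all KO libraries held less Hmox1 than the WT library without Y-linked reads. At 6 and 8 h of Pam3 and 6 h of R837 they held more. Nqo1 was higher in KO at 8 h of Pam3, at 4.60, 5.81 and 5.22 CPM against 3.10, 3.13 and 2.75 CPM with no overlap (log2 0.80 ± 0.26, adjusted p = 0.0217, over a range of 0.00323 to 0.244). It was lost with no filter on low counts (0.0837), and when replicate 2 (0.0512) or 3 (0.0918) of WT or 2 (0.0601) of KO was left out. With R837 Nqo1 did not pass, at log2 0.59 with an interval of 0.06 to 1.11 (95%; adjusted p = 0.143, groups that did not overlap) at 6 h and 0.60 (0.139, groups that overlapped) at 8 h.

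Whether the response itself differed by genotype was tested with an F-test over the 4 times of each ligand. With Pam3 4 of the 10 genes passed, where 4.64% of all genes did, and with R837 6 passed, where 7.47% did. With R837 these were Slc7a11 (adjusted p = 1.27e-05), Srxn1 (0.000455), Keap1 (0.000755), Txnrd1 (0.00259), Gclc (0.00852) and Gclm (0.0130), and no single left-out library took any of these 6 past 0.05. Leaving out all WT libraries numbered 1, or all KO libraries numbered 1, cut the 6 to 3. Txnrd1 (0.0663 and 0.0726), Gclc (0.103 and 0.0948) and Gclm (0.1085 and 0.146) were then lost. With Pam3 Slc7a11 passed (0.000668). Under limma voom Slc7a11 passed with neither ligand (0.376 with Pam3, 0.203 with R837). Txnrd1 (0.0271), Srxn1 (0.0467) and Gsr (0.0492) passed with Pam3 by a smaller margin. The Pam3 count fell to 1, Slc7a11, without WT untreated replicate 1 or 2, WT Pam3 2 h replicate 1 or 2, KO Pam3 2 h replicate 2 or 3, KO Pam3 4 h replicate 2, any replicate of WT Pam3 8 h, or KO Pam3 8 h replicate 1 or 3. It was 2 without WT untreated replicate 3, KO untreated replicate 1, WT replicate 3 or KO replicate 1 of 2 h, WT replicate 2 or 3 or KO replicate 3 of 4 h, or any WT replicate or KO replicate 1 or 2 of 6 h. At single times, 0 genes passed by edgeR at 2, 4 and 6 h of Pam3 (0.0401%, 0.387% and 1.10% of all genes) and at 2 h of R837 (0.0935%). At most 1 gene in each had an unadjusted p under 0.05, and DESeq2 and limma voom called 0. Over 26 alternatives the highest count at 6 h of Pam3 was 1. Then 2 genes passed at 8 h of Pam3 (4.47% of all genes), and 1, 5 and 2 passed at 4, 6 and 8 h of R837 (3.14%, 6.53% and 3.27%). The response of Slc7a11 was larger in KO by log2 1.81 at 8 h of Pam3 (adjusted p = 0.00212) and by 2.04 at 8 h of R837 (0.000733), and under limma voom those p were 0.126 and 0.177. That of Srxn1 was larger by 0.72 at 6 h of R837 (0.00181), and that of Keap1 was smaller at 4 h of R837 (log2 -0.55, adjusted p = 0.00814). The count at 8 h of Pam3 fell to 1 without any WT untreated replicate, KO untreated replicate 1, WT Pam3 8 h replicate 2 or 3, or KO Pam3 8 h replicate 3. At 8 h of R837 it fell to 1 without WT untreated replicate 1 or 2, KO untreated replicate 1, or replicate 1 of WT or KO with R837 at 8 h. At 6 h of R837 the count fell to 2 without KO untreated replicate 1. It was 3 without KO untreated replicate 3, any WT untreated replicate, or replicate 1 of WT or KO with R837 at 6 h. At 4 h it fell to 0 (edgeR) without KO R837 4 h replicate 2, and it was 2 without KO untreated replicate 3. The count at 8 h of Pam3 was 4 without replicate 2 of KO. Without the libraries with counts in the fewest genes, 3 genes passed at 8 h of Pam3 and 4 at 8 h of R837.

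Levels between genes were compared per length, as scaled CPM divided by kilobases of exon. In untreated WT cells Hmox1 led at 325 ± 6.91 CPM per kilobase, followed by Nfe2l2 at 109 ± 3.33, Srxn1 at 41.9 ± 1.73 and Txnrd1 at 37.4 ± 0.795. Gsr (15.1 ± 0.359) and Keap1 (15.1 ± 0.454) did not differ beyond their spread, nor did Gclc (11.4 ± 0.745) and Gclm (10.9 ± 0.0732), and Nqo1 (1.11 ± 0.123) and Slc7a11 (0.205 ± 0.0147) were last. At 8 h of Pam3 in KO the order had Hmox1 first at 1431 ± 136 CPM per kilobase and Nqo1 last at 3.36 ± 0.389, and Slc7a11 had moved to 81.1 ± 26.2, above Gclm at 46.9 ± 5.68. The glutamate-cysteine ligase subunits, level in untreated WT cells, stood at 46.9 ± 5.68 for Gclm and 18.9 ± 0.954 for Gclc in that group.

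Ranked over the 18 groups by mean CPM, KO with Pam3 at 8 h was first for Slc7a11, Gclc, Gclm, Txnrd1, Srxn1, Hmox1 and Nqo1, and KO with R837 at 8 h was first for Gsr. Nfe2l2 was highest in KO with R837 at 4 h, at 1176 ± 122 CPM, and Keap1 in WT with R837 at 6 h, at 121 ± 5.04 CPM. Untreated WT cells were last for Slc7a11, Txnrd1 and Srxn1, untreated KO cells for Nfe2l2, and groups at 2 h for the other 6 genes. Neighbouring groups in these orders mostly overlapped, in 11 of 17 pairs for Slc7a11 and for Gsr at the least and in 17 of 17 for Gclc.

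Across the 18 group means, which share libraries' scaling and the common time course, the pair of genes most alike was Gclm and Hmox1 (Pearson r = 0.950 of log2 CPM), and the pair least alike was Keap1 and Txnrd1 (r = 0.00969). The search for the nearest other genes kept tested genes with a symbol and a minimum mean CPM in some group, without the genes described here. Among them the nearest pattern to Slc7a11 was that of Cd82 (r = 0.987), then Ptgs2os2 (0.985) and Cxcl3 (0.979). The nearest to Gclm was Pgd (0.986), then Me1 (0.982). Nfe2l2 was nearest to Raver1 (0.951) and Keap1 to Tmem229b (0.953). These are descriptions of 18 points, given with no test.

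Other genes of the pathway were read from lists. Of 15 partners and regulators of NRF2, 6 rose and 2 fell at 2 h of Pam3 in WT and 8 rose and 3 fell at 8 h, with list medians of 0.25 and 0.36 (log2) against 0.03 and -0.03 over all genes, of which 41.0% and 52.2% passed. Maff, a small MAF protein that pairs with NRF2, rose from 0.686 ± 0.187 to 117 ± 21.0 CPM at 2 h of Pam3 (log2 7.41 ± 0.27). Bach1, the repressor that competes at antioxidant response elements, rose from 138 ± 8.95 to 559 ± 138 CPM (log2 2.02 ± 0.23). Sqstm1, whose product p62 draws KEAP1 into autophagy, rose from 726 ± 17.2 to 2743 ± 136 CPM (log2 1.92 ± 0.13). Between genotypes at 6 h of R837, 3 were higher and 2 lower in KO, where 16.5% of all genes passed. Maff was higher at 86.4 ± 18.6 against 41.0 ± 2.07 CPM (log2 1.07 ± 0.18), as was Sqstm1 (0.52 ± 0.12). Bach1 was lower at 105 ± 25.5 against 226 ± 37.5 CPM (log2 -1.11 ± 0.22) as was Mafk (-0.70 ± 0.14). With Pam3 at 8 h, where 23.9% of all genes passed, 3 were higher and 1 lower in KO, Sqstm1 (log2 0.69 ± 0.12) and Maff (1.00 ± 0.18) among the former.

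Further NRF2 targets did not all follow the 8 above. Of 22 tested, 4 rose and 9 fell at 2 h of Pam3 in WT, and 11 rose and 7 fell at 8 h (list medians -0.08 and 0.17), beside the same 41.0% and 52.2% of all genes. The NADPH-producing enzymes Idh1, G6pdx and Pgd and the pentose phosphate enzyme Taldo1 were lower at 2 h of Pam3, Idh1 the most, from 678 ± 47.1 to 293 ± 9.06 CPM (log2 -1.21 ± 0.08). At 8 h the ferritin heavy chain Fth1 rose from 5586 ± 175 to 12753 ± 424 CPM (log2 1.19 ± 0.10), the glutathione conjugate exporter Abcc1 by log2 2.00 ± 0.17 and thioredoxin itself, Txn1, by 1.37 ± 0.12, while Idh1 stayed low (-1.29 ± 0.08). Between genotypes 6 were higher and 1 lower in KO at 8 h of Pam3 (23.9% of all genes). Prdx1 stood at 1436 ± 275 against 1020 ± 47.0 CPM (log2 0.49 ± 0.11), and Me1, a malic enzyme that makes NADPH, at 15.8 ± 0.863 against 10.1 ± 0.435 CPM (0.65 ± 0.18). With R837 at 8 h (15.9% of all genes) 2 were higher and 2 lower, with Me1 (0.74 ± 0.19) and Abcc1 (0.59 ± 0.16) on one side and Ephx1 (-1.004 ± 0.18) and Ugdh (-0.27 ± 0.08) on the other.

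Of 19 genes for glutathione use and peroxide removal, 8 rose and 6 fell at 8 h of Pam3 in WT (median 0.17), where 52.2% of all genes passed. First came mitochondrial superoxide dismutase Sod2, from 53.5 ± 1.54 to 1663 ± 34.1 CPM (log2 4.96 ± 0.09), and then Prdx5 (2.99 ± 0.15) and Glrx (2.22 ± 0.10). Between genotypes at 8 h of Pam3 7 were higher and 1 lower in KO, with Prdx5 higher (0.61 ± 0.14) and Sesn1 lower (-2.06 ± 0.28), and at 8 h of R837 1 was higher and 3 lower (23.9% and 15.9% of all genes). Of 10 tested producers of oxidants and electrophiles, 9 rose and 1 fell at 8 h of Pam3 in WT and 10 rose at 8 h of R837 (medians 1.67 and 1.80), where 52.2% and 57.3% of all genes passed. Acod1, the enzyme that makes itaconate, rose from 1.98 ± 0.877 to 3018 ± 203 CPM at 8 h of Pam3 (log2 10.59 ± 0.33), and the NADPH oxidase subunit Cybb from 989 ± 82.3 to 5076 ± 375 CPM (2.36 ± 0.14). Between genotypes at 8 h of Pam3 Nos2, the inducible nitric oxide synthase, was higher in KO (1.16 ± 0.35). Xdh, xanthine dehydrogenase, was lower (-0.50 ± 0.11), as it was at 8 h of R837 (-0.78 ± 0.11).

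The amino acid response, driven by ATF4, also acts on Slc7a11. Of its 14 listed genes 2 were higher and 3 lower in KO at 8 h of Pam3, and 1 higher and 3 lower at 8 h of R837, where 23.9% and 15.9% of all genes passed. List medians were -0.07 and -0.25 beside -0.05 and 0.00 over all genes. Of 12 genes for haem and iron handling 2 were higher and 4 lower in KO at 8 h of Pam3, and 1 higher and 2 lower at 8 h of R837, beside the same shares of all genes.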

How the data were processed

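RNA was sequenced (TruSeq RNA v2 libraries, single-end reads, per the labels' protocols) and reads were aligned with GSNAP to GRCm38, per the submitters' processing notes. No label names the strand setting. The deposited files hold raw counts and RPKM per gene for 54 libraries. The deposited RPKM values rest on a library total 1.09 to 1.11 times the count sum, as computed from the files, and were not used further: levels are scaled CPM, divided by exon kilobases where genes are compared. Gene symbols came from GENCODE M21, and genes with no symbol held at most 0.0245% of counts. Counts were scaled by TMM (factors 0.83 to 1.28), filtered with filterByExpr (minimum count 10, total 15) and fitted in 1 model of 18 groups with edgeR 4.0.16 (R 4.3.3; 36 residual degrees of freedom), with Benjamini-Hochberg adjustment within each contrast. SE is the size of the log2 change divided by the square root of F. DESeq2 1.42.0 and limma 3.58.1 were alternatives. The scripts were tested on simulated data. The genes, lists and tests were chosen with earlier results of these data known. All 10 genes are named in each comparison, up to 4 list genes of smallest p in the comparison described, and the 3 nearest genes by correlation for at most 4 members. The result of 1 list gene is not reported here.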

Additional observations from a re-analysis of the deposited data

Results flagged for a closer look

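The response to a ligand differed between KO and WT cells, by edgeR's F-test over 4 times, for 10 combinations of gene and ligand. With R837 the adjusted p was 1.27e-05 for Slc7a11, 0.000455 for Srxn1, 0.000755 for Keap1, 0.00259 for Txnrd1, 0.00852 for Gclc and 0.0130 for Gclm. With Pam3 it was 0.000668 for Slc7a11, 0.0271 for Txnrd1, 0.0467 for Srxn1 and 0.0492 for Gsr. At single times Keap1 mRNA was lower in KO than in WT from 4 h of R837 on, and this difference did not pass with Pam3. In the F-test Slc7a11 passed with both ligands under edgeR and did not under limma voom. There its adjusted p was 0.376 with Pam3 and 0.203 with R837.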

How the results depend on the processing

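No value that passed in either fit changed sign: of 11530 log2 values over all alternatives 293 did, 8 of them without the 2 libraries with counts in the fewest genes. Of the 80 tests of a ligand in WT 63 passed, and 60 to 65 did under other settings, where 51.0% of the tests of all genes passed. In KO 68 of 80 passed (63 to 68), where 53.4% of the tests of all genes did. Of 90 tests of KO against WT 30 passed (25 to 31), where 9.57% did over all genes. Of 40 of R837 against Pam3 16 passed in WT (16 to 18) and 12 in KO (9 to 16), where 15.2% and 15.8% did. Of 20 of response by genotype 10 passed (8 to 12), where 6.06% did. Of 120 between successive times 73 passed (71 to 81), where 19.6% did. Leaving out 1 replicate number of 1 genotype gave, in the same order, 59 to 64, 63 to 67, 22 to 29, 8 to 17, 8 to 12, 4 to 10 and 61 to 78. Leaving out 1 library gave 27 to 31 for KO against WT and 7 to 11 for response by genotype. With a replicate block the counts, in the same order, were 65, 68, 30, 18, 16, 11 and 81. The replicate numbers were not taken as pairing the libraries, since in WT a number does not mark 1 source. With group means taken out, same-numbered libraries correlated above 0.1 in 36 of 108 WT pairs, 34 of 108 KO pairs and 3 of 243 pairs across genotypes. The median correlation was 0.063 for the same number against -0.035 for other numbers in WT, and 0.046 against -0.026 in KO. Libraries of 1 number were thus somewhat more alike within a genotype. The numbers do not follow the Y-linked counts, so the block and omissions by number mix sources. With the class of Y-linked counts as a term, an alternative chosen after seeing the data, the counts in the same order were 63, 68, 28, 16, 13, 11 and 75. RLE scaling moved the median of all genes by -0.0393 to 0.0294 (log2). Nqo1, at a few CPM, is limited by depth.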

Other observations

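In the 4 KO groups at 6 and 8 h the highest library was replicate 1 for Slc7a11, Gsr and Txnrd1 in 4 of 4 groups, and replicate 2 for Srxn1 and Nqo1 in 4 of 4 and for Gclc and Gclm in 3 of 4. This count was chosen after the values were seen.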
